A study of Mus musculus with 23 samples.

Results

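Medium spiny neurons of the striatum are recognised by a small set of transcripts, and 9 of these genes were followed here in RNA from the hippocampus: Pde10a, Drd1, Drd2, Adora2a, Rgs9, Ppp1r1b, Penk, Tac1 and Syndig1l. All 9 were present among the 45706 genes of the table, and all 9 were among the 15828 genes with enough counts to be tested. The genes were selected on the difference of Pde10a between the genotypes, known to be lower in the knockout libraries, and on their role as striatal markers, so the comparison of genotypes is given for these genes as a description, with standard errors and no p-values; counts of calls stand beside those of all genes, and nothing is read from them. The question was whether the lower Pde10a level went together with the other striatal markers or stood alone, library by library, with and without a knockout library, number 8, that stood apart from the others.

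The study measured the hippocampus of female mice that carried both copies of Ins2 (Ins2+/+, WT, 12 libraries) or none (Ins2-/-, KO, 11 libraries), and its title places it in work on brain insulin production, learning and memory. Mice have a pair of insulin genes, and Ins2 is one of them. The labels give tissue, sex and genotype for each library and no age, strain, batch or treatment, and they do not say how the Ins2 allele was made. They do not state whether a library is 1 animal, so the spread and every p-value refer to the spread between these libraries.

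In the striatum, dopamine and adenosine reach medium spiny neurons through receptors that raise or lower cAMP, and cAMP in turn activates protein kinase A. PDE10A is a phosphodiesterase that breaks down both cAMP and cGMP and is known for its very high level in these neurons, while DARPP-32, the product of Ppp1r1b, becomes an inhibitor of protein phosphatase 1 when protein kinase A phosphorylates it. Neurons with the D1 receptor also make substance P from Tac1, and neurons with the D2 receptor make enkephalin from Penk and carry an adenosine receptor, the product of Adora2a. Most of these genes are not private to the striatum: Penk and Tac1 are also used by neurons of the hypothalamus and by some interneurons, and Ppp1r1b is expressed in several brain regions.

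The sequence ahead of a start site is shown for Pde10a and for Drd2 and Tac1. These are the genes whose levels parted most clearly from that of Pde10a in KO library 8, described below. The 250 bases before each start are from RefSeq on GRCm38.p6, which held 5 of the 9 genes with 7 starts (Pde10a, Drd1, Drd2, Rgs9 and Tac1); Adora2a, Ppp1r1b, Penk and Syndig1l had no entry. The windows are chr17:8801495-8801744 and chr17:8849735-8849984 for Pde10a, chr9:49340153-49340402 for Drd2 and chr6:7554811-7555060 for Tac1, all on the plus strand, printed 5′ to 3′. Capitals mark matches on either strand to the GC box GGGCGG, the CCAAT box, the TATA box TATAAA, the cAMP response element TGACGTCA or its half-site TGACG.
Pde10a start 1: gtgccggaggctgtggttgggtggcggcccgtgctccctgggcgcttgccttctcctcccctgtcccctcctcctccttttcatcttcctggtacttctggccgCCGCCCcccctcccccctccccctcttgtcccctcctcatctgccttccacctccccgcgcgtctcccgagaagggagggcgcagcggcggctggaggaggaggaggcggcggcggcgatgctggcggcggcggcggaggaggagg
Pde10a start 2: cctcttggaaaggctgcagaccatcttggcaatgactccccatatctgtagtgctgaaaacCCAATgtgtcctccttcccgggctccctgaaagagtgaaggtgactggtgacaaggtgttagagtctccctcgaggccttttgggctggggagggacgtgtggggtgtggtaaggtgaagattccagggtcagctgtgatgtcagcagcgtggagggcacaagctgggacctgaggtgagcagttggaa
Drd2: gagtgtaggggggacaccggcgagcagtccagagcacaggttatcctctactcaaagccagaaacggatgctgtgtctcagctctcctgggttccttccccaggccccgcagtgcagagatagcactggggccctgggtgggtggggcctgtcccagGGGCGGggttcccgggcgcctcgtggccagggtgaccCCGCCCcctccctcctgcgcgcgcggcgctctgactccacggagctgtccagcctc
Tac1: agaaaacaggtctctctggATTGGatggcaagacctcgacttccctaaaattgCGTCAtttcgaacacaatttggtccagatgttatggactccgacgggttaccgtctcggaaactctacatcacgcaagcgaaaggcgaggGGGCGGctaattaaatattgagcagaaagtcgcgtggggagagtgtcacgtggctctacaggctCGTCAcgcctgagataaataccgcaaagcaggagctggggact

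The first Pde10a start had a GC content of 72.8% and a GC box 146 bases before it, and the second had 56.0% and a CCAAT box 189 bases before it, against a median GC content of 52.4% over all promoters. Neither Pde10a window held the half-site TGACG, which occurred in 17.9% of 32536 promoters of the same length, or the full element, which occurred in 1.56%. The Tac1 window held 2 half-sites, 1 GC box and 1 CCAAT box, and the Drd2 window held 2 GC boxes. GC boxes occurred in 33.0%, CCAAT boxes in 33.8% and TATA boxes in 12.3% of all promoters. These matches are descriptions of letters in a window.

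Libraries held 13792274 to 22953261 counts, so that 3 counts, the most that a count of 0 allows, corresponded to 0.131 to 0.218 CPM (counts scaled to a common library total); these limits cover counting error only. Ins2 had 0 counts in 11 of 11 KO libraries and 26 counts over 7 of 12 WT libraries, 18 of them in WT library 17. Across all 15828 genes, edgeR's quasi-likelihood test with Benjamini-Hochberg adjustment called 2 genes, which is 0.0126% of those tested; these were Ccnd1 and Gm26793.

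Several libraries stood apart and touch the results that follow. KO library 8 carried hypothalamic RNA: the summed level of 12 hypothalamic markers was 1580 CPM, against 1.99 to 7.55 CPM in WT libraries and 1.64 to 9.20 CPM in the other KO libraries. Its summed level of 9 dentate gyrus markers was 107 CPM, against 370.1 to 651 CPM in WT libraries and 299.8 to 627 CPM in the other KO libraries, so the tissue label held for dentate gyrus RNA in 22 libraries and less so in that one. WT library 15 had the highest WT sums of the hypothalamic (7.55 CPM), interneuron (1520 CPM), thalamus and habenula (178 CPM) and oligodendrocyte (8233 CPM) lists and the lowest of the dentate gyrus (370.1 CPM) and CA1 and CA3 (482 CPM) lists. Choroid plexus RNA was present in 5 libraries, WT libraries 14 and 17 and KO libraries 2, 6 and 12, whose mean log2 CPM over the choroid plexus markers was 5.79 to 8.51, against 0.70 to 2.93 in the other 18; the value of 4 that divides them was set after the data were seen.

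Pde10a was lower than the WT median in 10 of 11 KO libraries, Penk in 9, Drd2 in 7, and the other 6 genes in 3 to 6. Without KO library 8, the KO median of Pde10a was 76.4% of the WT median, while those of the other 8 genes lay between 92.0% for Drd2 and 120.4% for Tac1. The ratios of means, in which WT library 15 weighs more, gave another order: 71.4% for Drd2, 77.2% for Adora2a, 81.2% for Penk and 83.0% for Pde10a. Whether Pde10a stood alone thus depended on the measure and on WT library 15. Without KO library 8, the fitted differences of Drd2, Adora2a and Penk were below that of Pde10a, and without WT library 15 as well none of the 8 were. Of the 9 genes, 0 were called in either direction in the test across all genes, beside 0.0126% of all genes, and in 0 of the 9 did an alternative fit, DESeq2 and voom among them, make a call. At an unadjusted p below 0.05, 1 was higher and 1 lower with 23 libraries (3.41% and 2.34% of all genes), and 0 were higher and 2 lower without KO library 8 (2.18% and 1.93% of all genes). Pde10a, whose difference selected the set, is among the lower ones, so nothing is read from these counts. In tissue RNA, fewer cells of a type and less RNA per cell cannot be told apart.

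**Figure D1:**
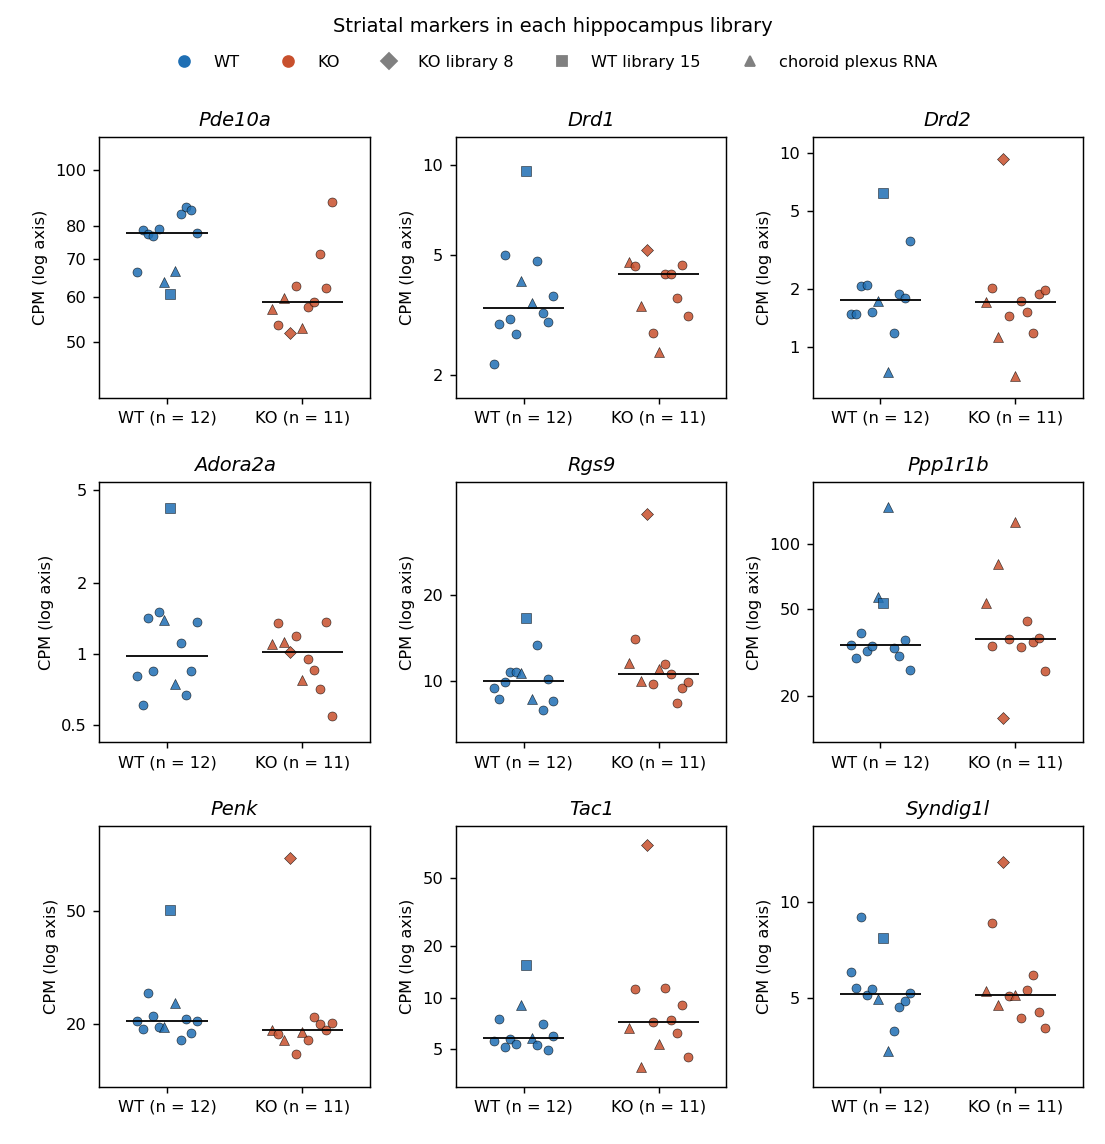
Level of each of the 9 genes in each library, in CPM on log axes, for 12 WT (blue) and 11 KO (orange) libraries. Horizontal lines are group medians, the diamond is KO library 8, the square is WT library 15 and triangles are the 5 libraries with choroid plexus RNA. For Pde10a, 7 KO libraries lie below every WT library, whereas for Drd2, Penk, Rgs9, Tac1 and Syndig1l the highest point is KO library 8.

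Pde10a (chr17:8525372-8986648, plus strand, on GRCm38) spans its RefSeq starts and was the gene of the set with the least spread. In WT libraries its level was 60.7 CPM at the lowest, 77.5 CPM at the median and 86.3 CPM at the highest. In KO libraries the lowest was 51.9 CPM, the median 58.7 CPM and the highest 87.9 CPM. The groups overlapped, but 7 of 11 KO libraries lay below every WT library and 10 of 11 lay below the WT median.

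The means were 75.2 ± 8.69 CPM in WT (n = 12) and 61.4 ± 10.3 CPM across the KO libraries (n = 11; both SD), a log2 difference of -0.29 (SE 0.0799). KO library 8 had the lowest level of all 23 libraries, 51.9 CPM, and leaving it out gave -0.26 (SE 0.0781). KO library 22 had the highest level of all 23, 87.9 CPM, and leaving it out gave -0.36, the largest difference among the 23 fits that each left out 1 library. None of these 23 fits, nor any of 14 other fits, changed the sign. The gene was counted with 865 to 1905 reads per library and with whole counts in every library, so counting error was small beside the spread.

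Penk encodes the precursor of the enkephalin peptides and lies at chr4:4133531-4138819 on the minus strand. Its WT levels ran from 17.7 CPM over a median of 20.5 CPM to 50.1 CPM in WT library 15, and its KO levels from 15.7 CPM over 19.03 CPM to 76.2 CPM in KO library 8. Without those libraries the WT range was 17.7 to 25.7 CPM and the KO range 15.7 to 21.3 CPM, which overlapped. The log2 difference was 0.050 (SE 0.240) with 23 libraries, -0.30 (SE 0.138) without KO library 8 and -0.14 (SE 0.0630) without both, so its sign turned on KO library 8.

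Tac1, the precursor gene of substance P and neurokinin A, lies at chr6:7554879-7565834 on the plus strand. As a ratio of the highest to the lowest level, it varied most of the 9 genes. WT levels were 4.97 CPM at the lowest, 5.76 CPM at the median and 15.6 CPM in WT library 15, and KO levels were 3.91, 7.22 and 77.2 CPM, the last in KO library 8. The remaining 10 KO libraries reached at most 11.3 CPM and overlapped the WT range. The log2 difference of 0.98 (SE 0.429) became 0.082 (SE 0.207) without KO library 8 and 0.26 (SE 0.165) without both libraries.

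Of the dopamine receptors, Drd1 (chr13:54051183-54055705, minus strand) encodes the receptor that raises cAMP. It was measured at 2.17, 3.35 and 9.52 CPM (lowest, median and highest) in WT and at 2.38, 4.33 and 5.22 CPM in KO. The KO levels lay entirely within the WT range, whose top was WT library 15. The log2 difference was -0.023 (SE 0.199), -0.065 (SE 0.201) without KO library 8 and 0.13 (SE 0.148) without both libraries, each smaller than its SE.

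Drd2 (chr9:49340627-49408177, plus strand) encodes the dopamine receptor that lowers cAMP. Its levels were 0.745, 1.76 and 6.24 CPM in WT and 0.713, 1.71 and 9.24 CPM in KO, with WT library 15 and KO library 8 at the tops. Apart from these, WT libraries reached 3.53 CPM and KO libraries 2.01 CPM, and the groups overlapped. The log2 difference was 0.046 (SE 0.377), -0.49 (SE 0.274) without KO library 8 and -0.20 (SE 0.207) without both.

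Adora2a (chr10:75316877-75334784, plus strand), the gene of the adenosine receptor that raises cAMP in these neurons, was the least abundant, with 8 to 93 reads per library. Its levels were 0.604, 0.983 and 4.18 CPM in WT and 0.546, 1.02 and 1.37 CPM in KO. It was the 1 receptor gene in which KO library 8 was not high, at 1.02 CPM, while WT library 15 held the top value. The log2 difference of -0.39 (SE 0.274) was -0.38 (SE 0.284) without KO library 8 and -0.040 (SE 0.195) without both, so that difference rested on WT library 15.

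Rgs9 (chr11:109225355-109298129, minus strand) encodes a protein that shortens signalling through G proteins coupled to dopamine receptors. WT levels were 7.92, 10.02 and 16.6 CPM, and KO levels were 8.36, 10.6 and 38.4 CPM, the last in KO library 8. The other KO libraries reached 14.04 CPM and overlapped with WT. The log2 difference went from 0.33 (SE 0.211) to 0.029 (SE 0.109) without KO library 8, and was 0.11 (SE 0.0900) without both.

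Ppp1r1b (chr11:98348404-98357796, plus strand) had WT levels of 26.6, 34.3 and 147.9 CPM and KO levels of 16.02, 36.5 and 125.9 CPM. Its highest values were in libraries with choroid plexus RNA: the 5 libraries with that RNA had 53.4 to 147.9 CPM (median 80.9), and the others, KO library 8 left out, had 26.3 to 53.8 CPM (median 34.1). KO library 8 had the lowest level, 16.02 CPM. The log2 difference was 0.040 (SE 0.315), 0.14 (SE 0.319) without KO library 8, and 0.0068 without KO library 8 and the 5 choroid plexus libraries.

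Syndig1l (chr12:84677277-84698831, minus strand) encodes a membrane protein related to the synapse protein SynDIG1. Its levels were 3.42, 5.14 and 8.98 CPM in WT and 4.02, 5.11 and 13.4 CPM in KO, where KO library 8 was again the highest and the next reached 8.60 CPM. The medians were close and the groups overlapped. The log2 difference was 0.14 (SE 0.188), -0.045 (SE 0.147) without KO library 8 and 0.0096 (SE 0.143) without both.

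The counts of Ppp1r1b, Penk and Syndig1l are less certain than the others. Exons of 1700003D09Rik share 460 bases with Ppp1r1b on the opposite strand, those of A830012C17Rik share 233 bases with Penk and those of Gm48573 share 177 bases with Syndig1l. The kit marks strand, but whether counting used it is not given in the sources used here. The antisense genes themselves had few counts, 4 to 57 per library for 1700003D09Rik and 0 to 7 for A830012C17Rik. Ppp1r1b had fractional counts in 7 libraries; how they arose was not tested.

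**Figure D2:**
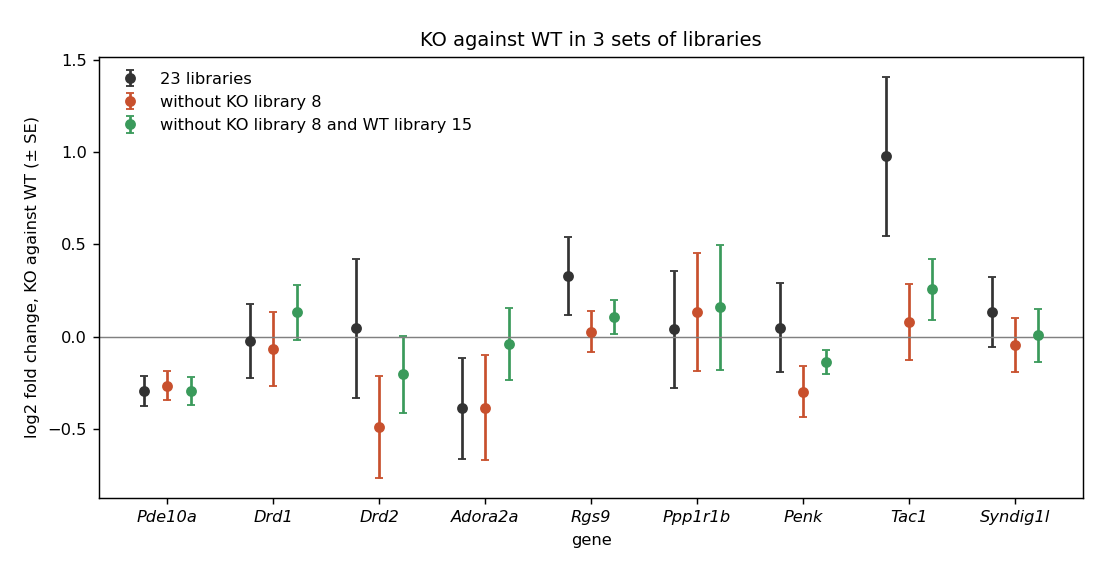
Log2 fold change of KO against WT with its standard error for each gene, from 23 libraries (black), without KO library 8 (orange) and without KO library 8 and WT library 15 (green). Pde10a stays between -0.29 and -0.26 with the smallest change, whereas Tac1 goes from 0.98 to 0.082 when KO library 8 is left out.

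The direction of the other 8 genes depended on the fit. With 23 libraries 6 were above and 2 below 0, with a median of 0.048, and without KO library 8 these numbers were 3 and 5, with a median of -0.055. The median over all tested genes was 0.0031 and 0.0032 in these fits, with 51.0% and 51.6% of genes above 0. In the fit without both libraries, Pde10a was at -0.29 (SE 0.0752), and the 8 others lay between -0.20 for Drd2 and 0.26 for Tac1, 5 above and 3 below 0.

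Divided by the summed exon length of each gene, the WT levels fell into a wide order. Ppp1r1b (15.8 ± 11.4 CPM per kb, SD, n = 12) and Penk (14.2 ± 5.37) stood at the top with overlapping ranges, and Pde10a (5.85 ± 0.676) came next with a range that overlapped neither neighbour. Tac1 (2.03 ± 0.877), Syndig1l (1.78 ± 0.497), Rgs9 (1.63 ± 0.380), Drd1 (1.10 ± 0.533), Drd2 (0.842 ± 0.571) and Adora2a (0.422 ± 0.315) followed, each overlapping the next. On this scale the genes stood between percentile 79.4 of the tested genes for Ppp1r1b and percentile 7.99 for Adora2a, with Pde10a at percentile 55.1.

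The libraries with low Pde10a did not share a low or a high level of the other markers. The 7 KO libraries below every WT library were KO libraries 2, 4, 6, 8, 12, 13 and 16. In KO libraries 2, 4 and 16, 6 of the 8 other genes were above their WT medians, in KO libraries 6 and 13 it was 3, in KO library 12 it was 2, and in KO library 8 it was 7. KO library 22, with the highest Pde10a level of all, had 1 of 8 above the WT median, and WT library 15, with the lowest WT level of Pde10a, had 8 of 8.

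**Figure D3:**
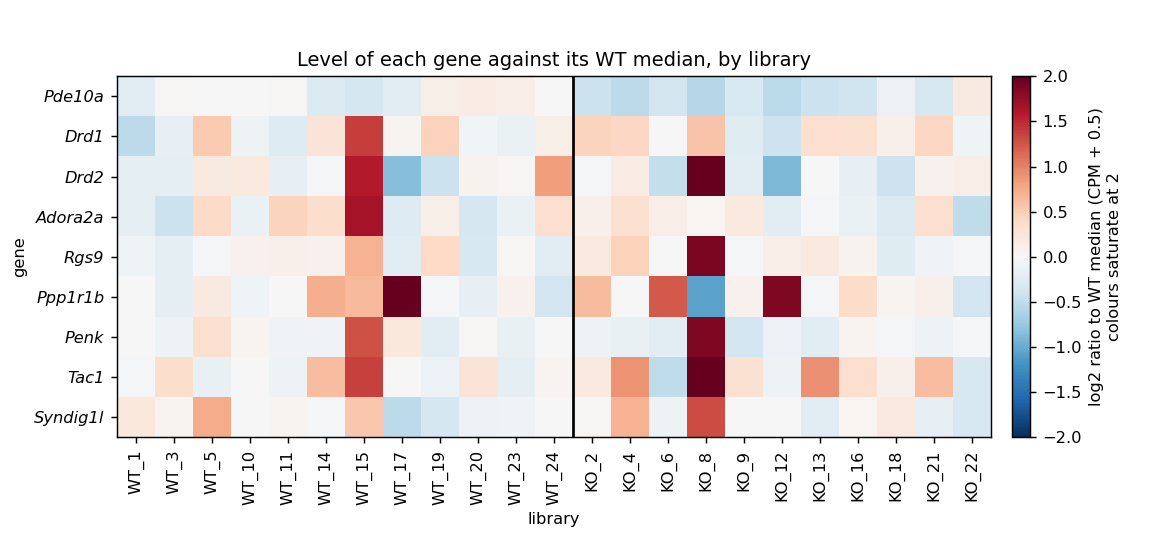
Level of each gene in each library as the log2 ratio to its WT median (after adding 0.5 CPM), with WT libraries left and KO libraries right of the line and colours saturating at 2. The Pde10a row is blue in 10 of 11 KO libraries, while the strongest colours of the other genes are in WT library 15, KO library 8 and, for Ppp1r1b, the choroid plexus libraries.

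WT library 15 and KO library 8 were each high in 6 of the 8 other genes, and in neither was Pde10a high. KO library 8 was not high across the striatal markers, and its Ppp1r1b level was the lowest of all libraries. WT library 15 exceeded the 21 remaining libraries in 6 of the 8 other genes (75%), against 6.63% of all tested genes. Relative to the median of the other WT libraries it was 4.91-fold for Adora2a, 3.62-fold for Drd2, 2.96-fold for Drd1, 2.71-fold for Tac1 and 2.44-fold for Penk, but 0.781-fold for Pde10a. Among 29 other striatal genes that were tested, 13 (44.8%) were above the 21 libraries.

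KO library 8 also exceeded the 21 libraries in 6 of the 8 genes (75%), where 22.6% of all tested genes did, and 13 of the 29 other striatal genes were above and 11 (37.9%) below the 21 libraries, where 23.8% of all tested genes were below. Its ratios to the median of the other KO libraries were 11.1 for Tac1, 5.72 for Drd2, 4.02 for Penk, 3.74 for Rgs9, 2.63 for Syndig1l and 1.31 for Drd1, beside 0.994 for Adora2a, 0.877 for Pde10a and 0.437 for Ppp1r1b. Bcl11b, a transcription factor gene of medium spiny and hippocampal neurons, was at 14.4 CPM there against 143 to 215 CPM in the 21 libraries. The hypothalamic and dentate gyrus sums given above moved with these levels, and their part in them was not tested.

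**Figure D4:**
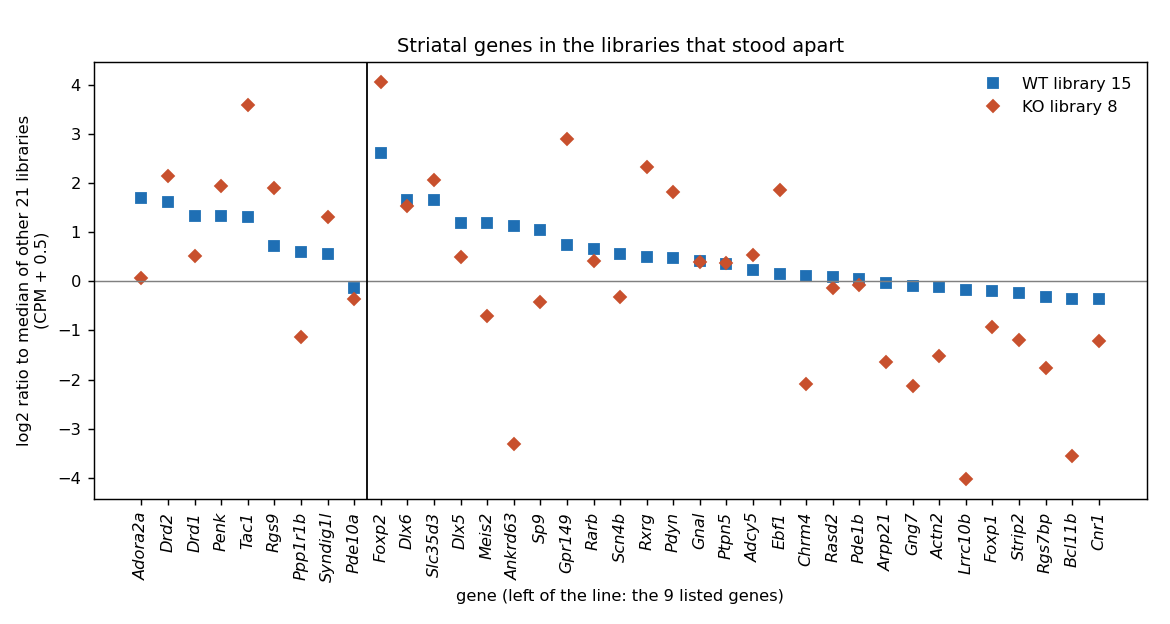
Log2 ratio of WT library 15 (squares) and KO library 8 (diamonds) to the median of the other 21 libraries, after adding 0.5 CPM, for the 9 genes (left of the line) and other striatal genes that were tested, 1 of them not shown. Both libraries lie above 0 for Drd1, Drd2, Adora2a, Rgs9, Penk, Tac1 and Syndig1l and below 0 for Pde10a, and they part for Ppp1r1b.

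Within a genotype, where the difference between genotypes plays no part, no relation of Pde10a with another of the genes passed the test in either genotype on its own when KO library 8 was left out, and 1 did when it was kept. With both genotypes joined as 22 libraries centred on their genotype means, 3 negative relations of Pde10a passed by Pearson, with Adora2a (adjusted 0.0499), Ppp1r1b (adjusted 0.0266) and Tac1 (adjusted 0.0406), and 0 by Spearman. Their r went from -0.51 to -0.23, from -0.58 to -0.54 and from -0.53 to -0.30 without KO library 22 and WT library 15, so those of Adora2a and Tac1 rested in part on these libraries. Over 12 WT libraries its Pearson r with them on the log2 CPM scale ran from -0.63 for Tac1 to -0.23 for Syndig1l, 8 of 8 negative, and over 10 KO libraries without KO library 8 from -0.64 for Adora2a to 0.29 for Penk, 6 of 8 negative. Of 72 relations between pairs of the 9 genes in both genotypes, 0 passed an adjusted p of 0.05 by permutation test (two-sided, 100000 resamples), by Pearson or by Spearman. For Pde10a and Tac1 in WT, r was -0.63 (p = 0.0178, adjusted 0.161), Spearman's rho was -0.47 (p = 0.127, adjusted 0.704), and r was 0.064 without WT libraries 14 and 15. The relation that passed with KO library 8 was that with Rgs9 in 11 KO libraries, by rank: rho was -0.88 (permutation p = 0.00065, adjusted 0.0468), with r = -0.51 (p = 0.0993, adjusted 0.188) and r = -0.71 without KO libraries 18 and 22. Without KO library 8, rho was -0.84 (p = 0.00375, adjusted 0.270), r was -0.61 (p = 0.0733, adjusted 0.240), and r was -0.80 without KO libraries 18 and 22. In WT, rho was -0.25 (p = 0.429, adjusted 0.805); the difference between the genotypes was not tested.

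Most of the negative values in WT rested on few libraries: without WT libraries 14 and 15, r with Pde10a was above 0 for 6 of the 8 genes.

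Among the other markers, the relation with the highest r in WT, 0.81 between Drd1 and Adora2a (permutation p = 0.00575, adjusted 0.148; rho 0.51, p = 0.0945, adjusted 0.704), became 0.45 without WT libraries 1 and 15. Levels of Ppp1r1b were higher in the libraries with choroid plexus RNA, the ranges meeting at 53.4 to 53.8 CPM, so its relation with Pde10a is also given among those without that RNA. There, r with Pde10a was -0.64 in 10 WT libraries (permutation p = 0.0597; rho -0.36, p = 0.317), and 0.12 without WT libraries 1 and 15. In 7 KO libraries it was -0.67 (exact permutation p = 0.129; rho -0.14, p = 0.783), and -0.27 without KO libraries 4 and 22.

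The genes most like Pde10a in pattern were outside the striatal lists. Over the 22 libraries without KO library 8, the highest r among 14998 genes with a mean of at least 1 CPM was that of Sipa1l1 (0.93), followed by Creg2 (0.92), Ppp1r9a (0.92), Frrs1l (0.92) and Mef2a (0.91); the points share a genotype difference. The exon lengths of these 5 genes were 6091 to 14681 bases. Their log2 differences between KO and WT were -0.24 (SE 0.138), -0.22 (SE 0.104), -0.12 (SE 0.0586), -0.19 (SE 0.109) and -0.17 (SE 0.0960), none of them called. The 8 other markers had r between -0.53 for Ppp1r1b and 0.13 for Drd2 on the same libraries. Of further striatal genes, Rgs7bp, whose product anchors RGS proteins at the membrane, had 0.86, Bcl11b 0.71 and Rasd2 0.58.

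Measures of the libraries that moved with Pde10a were a transcript length index and the dentate gyrus markers, both chosen after the values were seen. A p-value would take no account of that choice, so their correlations with Pde10a are given as descriptions. The index is the mean log2 CPM of 3936 genes in the longest quartile of exon length minus that of the 3937 in the shortest. The longest quartile holds genes of at least 6653 bases and the shortest those of at most 2615 bases. Pde10a, with 12849 bases, falls in the longest quartile but was left out of the index. It was 2.20, 2.36 and 2.50 (lowest, median, highest) in WT and 2.18, 2.26 and 2.54 in KO without library 8. In WT, r with Pde10a was 0.84 (rho 0.84) and 0.76 without WT libraries 15 and 23. In KO it was 0.82 (rho 0.60) and 0.36 without KO libraries 16 and 22, so the relation in KO rested on those.

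The 9 dentate gyrus markers, among them Prox1, which specifies granule cells, had a mean log2 CPM of 4.90, 5.47 and 5.68 in WT and 4.71, 5.21 and 5.64 in KO without library 8, and 2.38 in KO library 8. All 9 were lower in KO with and without that library, and 0 were called. Of all tested genes, 51.0% and 51.6% were higher in KO in these fits. The 8 oligodendrocyte markers were also all lower in KO, and 6 of them without KO library 8, whereas 0 of the 8 tested choroid plexus markers were lower in either fit. The r of Pde10a with this mean was 0.62 in WT (rho 0.65), and 0.28 without WT libraries 1 and 15. In KO without library 8, r was 0.57 (rho 0.36), and 0.18 without KO libraries 16 and 22.

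With these measures as covariates the Pde10a difference was smaller. It was -0.22 (SE 0.0756) with the dentate gyrus mean and -0.21 (SE 0.0550) with the length index over 23 libraries. Without KO library 8 it was -0.18 (SE 0.0689) and -0.17 (SE 0.0486). Over 23 libraries, 7 of the 8 other genes were below 0 with the dentate gyrus mean and 3 with the length index. In the same fits without KO library 8, WT library 15 included, these numbers were 7 and 8. Drd2 was at -0.66 (SE 0.252) and -0.55 (SE 0.278), Adora2a at -0.59 (SE 0.262) and -0.58 (SE 0.252), and Penk at -0.39 (SE 0.131) and -0.36 (SE 0.127), all farther from 0 than Pde10a and with larger SE. Drd1, at -0.24 (SE 0.191) and -0.19 (SE 0.185), was also below Pde10a in both fits. Tac1, at -0.20 (SE 0.172) and -0.099 (SE 0.178), was below it with the dentate gyrus mean only.

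**Figure D5:**
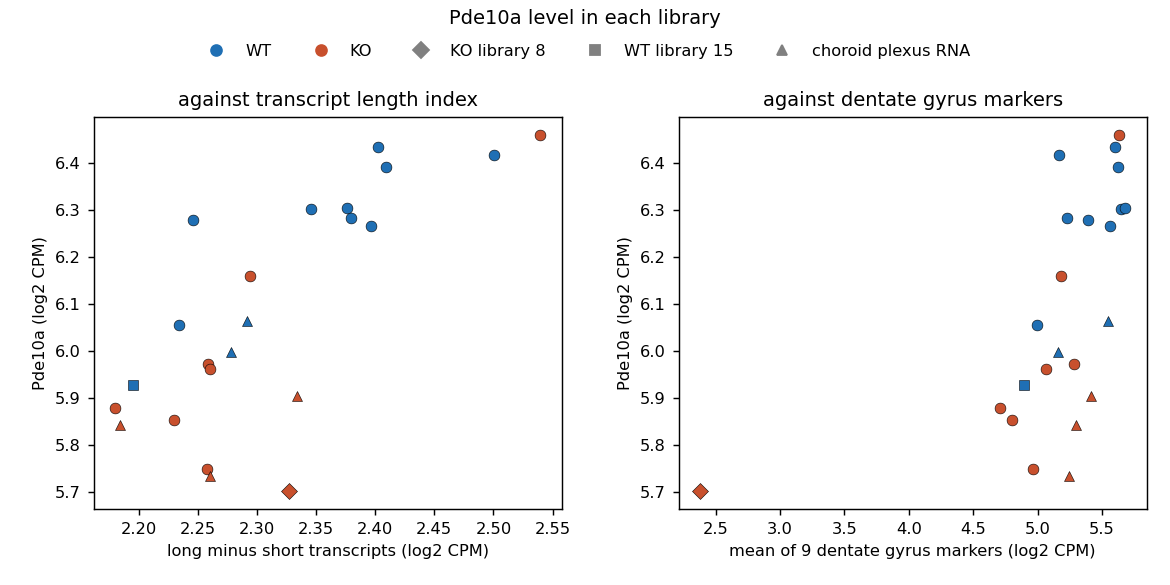
Pde10a level in each library (log2 CPM) against the transcript length index (left) and against the mean log2 CPM of 9 dentate gyrus markers (right), with symbols for KO library 8, WT library 15 and the 5 choroid plexus libraries. Within WT, Pde10a is higher where the length index is higher. For the dentate gyrus mean, r in WT was 0.62, and 0.28 without WT libraries 1 and 15. KO library 8 sits apart at a dentate gyrus mean of 2.38.

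Other genes of the same pathways were taken from 5 lists holding 116 genes, of which 114 were in the table and 102 were tested. None of the 102 passed the edgeR quasi-likelihood test with Benjamini-Hochberg adjustment, nor DESeq2 or voom, beside 0.0126% of all genes by edgeR. At an unadjusted p below 0.05, 7 were higher and 3 lower in KO, where 3.41% and 2.34% of all tested genes were. Without KO library 8, 0 were higher and 6 lower, where 2.18% and 1.93% of all genes were.

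By list, 11 of the 29 other striatal genes were higher and 18 lower, with a median log2 difference of -0.055. The 16 phosphodiesterase genes besides Pde10a divided into 8 higher and 8 lower (median -0.0019), and the 39 genes of cAMP, protein kinase A and DARPP-32 signalling into 19 and 20 (median -0.026). Of 17 further receptor and peptide genes, 11 were higher and 6 lower, with a median of 0.20 that became 0.042 without KO library 8. Of 8 genes for partners and relatives of RGS9 and SynDIG proteins, 1 was higher and 7 lower (median -0.077).

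Rasd2, which encodes the small GTPase Rhes of striatal neurons, had the smallest unadjusted p of the other striatal genes. Its levels were 58.7, 70.8 and 83.6 CPM in WT and 48.8, 61.6 and 70.3 CPM in KO without library 8, so the groups overlapped. The log2 difference was -0.23 (SE 0.0610; edgeR p = 0.00078, adjusted 0.781, 0.126 to 1.0 over alternatives) and -0.23 (SE 0.0631) without KO library 8. Of the other phosphodiesterases, Pde8b, which is specific for cAMP, was at -0.13 (SE 0.0477), and -0.11 (SE 0.0469) without KO library 8.

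Prkg1, the gene of a cGMP-dependent protein kinase, was at -0.35 (SE 0.126), and -0.34 (SE 0.129) without KO library 8, and the adenylyl cyclase gene Adcy8 at 0.34 (SE 0.142) and 0.21 (SE 0.108). For 3 of the peptide and receptor genes the difference was smaller without KO library 8. Pomc, the precursor of melanocortins and beta-endorphin, went from 2.47 (SE 0.738) to 0.56 (SE 0.397) without it, the kappa opioid receptor gene Oprk1 from 1.54 (SE 0.514) to 0.46 (SE 0.278), and Tac2, the neurokinin B precursor gene, from 1.21 (SE 0.436) to 0.26 (SE 0.178). Ebf1, a transcription factor gene of developing striatal neurons, went from 0.60 (SE 0.277) to 0.31 (SE 0.221). None of these genes passed the adjusted threshold in either fit.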

How the data were processed

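RNA from hippocampus was purified from Trizol homogenates and made into libraries with a stranded mRNA kit, per the labels' protocols. The submitters' processing notes name bcl2fastq, STAR and mm10, without versions; the counting program and its use of strand are not given in the sources used here. The authors deposited estimated counts per gene, of which 24.6% to 27.2% of the non-zero values in a library were fractional; 0 columns were unmatched and 0 entries named no gene.

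Counts were rounded to whole numbers, filtered by genotype (filterByExpr), scaled by TMM and tested by edgeR 4.0.16 (R 4.3.3) with the quasi-likelihood F test, genotype only, Benjamini-Hochberg adjusted at 0.05. Standard errors were derived from each fold change with its F statistic. The tested genes held 99.84% of counts, and the common biological variation was 22.9%. CPM use TMM-scaled totals; correlations use log2 CPM with a prior count of 2. On simulated data for 15727 genes, the KO against WT test recovered 60.6% of genes changed by 0.5 and 89.9% of those changed by 1 on the log2 scale. Libraries of one genotype differed by more than sampling noise (chi-square per degree of freedom at least 7.33).

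Positions and exon lengths are from GENCODE M21 (GRCm38). The 9 genes and all lists were chosen with earlier results of these data known. The named-gene rule took the 9 genes, Ins2, up to 3 list genes in each direction with the smallest unadjusted p below 0.05, and the 5 genes most like Pde10a; other genes were named after their values were seen. Gpr52 and Pde2a were not analysed here, and 1 further striatal gene, counted in its list, is not reported here by itself. The alternatives were RLE factors, DESeq2 1.42.0, limma 3.58.1 voom, other filters, covariates, 1 surrogate variable (sva 3.50.0) and leaving out libraries.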

Additional observations from a re-analysis of the deposited data

How the results depend on the processing

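The covariates for dentate gyrus and transcript length and the fits without WT library 15 or the 5 choroid plexus libraries were chosen after seeing the data. The count of called genes, 2, was 4 with DESeq2 and with voom, 1 with a mean of at least 50 counts and 1 without the 5 choroid plexus libraries, and 2 to 3 when each library was left out. Tac1, at 0.98, was 0.066 with DESeq2, which replaced the count of KO library 8 for Tac1, Drd2 and Penk, -0.21 with the dentate gyrus covariate, -0.20 and -0.099 without KO library 8 and with the dentate gyrus or length covariate, and 0.082 to 1.15 when each library was left out, the lowest without KO library 8. With 22 libraries centred on genotype means, 13 of 36 pairs of genes passed by Pearson and 0 by Spearman; 3 of the 13 held Pde10a, with r of -0.51 with Adora2a, -0.58 with Ppp1r1b and -0.53 with Tac1. With KO library 8 kept, 1 pair passed by Spearman. The Pde10a difference was -0.34 to -0.17 over 14 other fits. Drd2 was -0.66 to 0.15, Penk -0.42 to 0.14, Tac1 -0.21 to 1.28, Rgs9 -0.091 to 0.39, Syndig1l -0.15 to 0.16, Ppp1r1b -0.10 to 0.23 and Drd1 -0.24 to 0.14, each on both sides of 0; Adora2a was -0.59 to -0.032. Drd2 and Adora2a were not tested with a mean of at least 50 counts. No paired analysis was possible because no replicate number occurs in both genotypes. Adora2a, Drd2 and Drd1, at 8 to 212 reads per library, have the least precise levels.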
